A study of Mus musculus with 20 samples.

Results

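The genes followed here encode acute-phase and metal-binding proteins. They were chosen by name with earlier results of these data in view, with Serpina3n and Cp at the centre. The list held 10 names, and 9 of them matched a row of both deposited comparison tables. Transferrin, listed as Tf, was found under its mouse symbol Trf through a RefSeq synonym, so that all 10 genes were followed among the 26214 genes listed in both tables. RNA was measured in the heart apex of 20 FVB/NRj mice, all wild-type, on postnatal day 28. None had a heart injury, and each had been given AAV9, a viral vector with a strong uptake by heart muscle, by injection behind the eye. In the 4 groups of 5 mice, the vector carried Zeb2os or a control, and a CMV or an hTNNT2 promoter. What the control vector carried and how long before day 28 it was given are not stated in the labels. CMV is active in many cell types, whereas hTNNT2, the promoter of cardiac troponin T, is restricted largely to cardiomyocytes. The CMV control group had 2 males, the CMV Zeb2os group 1, the hTNNT2 control group 0 and the hTNNT2 Zeb2os group 3.

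Acute-phase proteins are plasma proteins whose amounts shift in inflammation, chiefly because the liver responds to interleukin 6, interleukin 1 and glucocorticoids. Many are also made locally, in the heart by fibroblasts, macrophages and muscle cells. Several bind metals or metal complexes: ceruloplasmin carries copper and oxidises iron, transferrin carries iron, haptoglobin captures free haemoglobin and lipocalin 2 captures the iron carriers of bacteria. Metallothioneins are small cysteine-rich proteins that stay inside the cell and hold zinc and copper, so they belong here by metal binding and not by secretion.

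The deposited tables hold a mean normalised count over the 10 libraries of a comparison, a log2 fold change of Zeb2os against control with its standard error (SE), a Wald statistic and p-values. The values of single mice are not analysed here. Levels are therefore not given per mouse or per group, and overlap between groups is not described. In the authors' deposited tables Zeb2os itself rose by 3.66 (SE 0.071) with CMV and by 4.53 (SE 0.083) with hTNNT2, which sets the direction of all other values. The log2 fold changes cannot be read as ratios of group means. The clearest sign is Ddx3y, a gene of the Y chromosome with a mean count of 2533 in the hTNNT2 comparison. Although the labels put 3 males in its Zeb2os group and 0 in its control group, Ddx3y was at only 0.018 (SE 0.014) in the authors' deposited table. The SE was 0.0073 at the median of genes with a mean count under 0.5 in the authors' deposited hTNNT2 table, against a median of 0.074 for genes with a mean of 50 or more. A small SE is therefore no sign of precision, and sizes are given on the deposited scale.

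All 10 genes were detected in the heart apex, at levels that spanned more than 3 orders of magnitude per length of exon. In the authors' deposited CMV table the mean normalised count per kb of exon was 930 for Trf, 886 for Mt1, 812 for C3 and 608 for Cp. It was 276 for Mt2 and 173 for Serpina3n in the same table of the authors' deposited values. Hp at 52.1, C4b at 46.7 and Lcn2 at 12.8 followed, and Saa3 was close to absent at 0.519 per kb, a mean count of 1.35 reads. The authors' deposited hTNNT2 table gave 1055 per kb for Mt1, 833 for Trf, 827 for C3, 712 for Cp, 379 for Mt2 and 198 for Serpina3n. C4b at 49.9, Hp at 35.5, Lcn2 at 15.0 and Saa3 at 0.276 per kb closed that order. Mt1 and Trf thus changed places at the top, and Hp and C4b further down. Without values per mouse, no neighbours in either order could be told apart by their spread. For every gene the divisor was all its annotated exon bases together, and the order depends on it. The annotated exons of Mt1 together cover its whole gene, introns of other transcripts included, so its level per kb is a low estimate. Cp had 9566 exon bases, against 5143 for C3 and 3320 for Trf. By mean count alone Cp stood above both with CMV, at 5812 against 4177 and 3089 as deposited by the authors. How far the divisor exceeds the transcripts present was not tested. Myh6, the main myosin of adult mouse heart muscle, had a mean count of 1645869 in the authors' deposited CMV table and 1935773 in the hTNNT2 one.

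**Figure D1:**
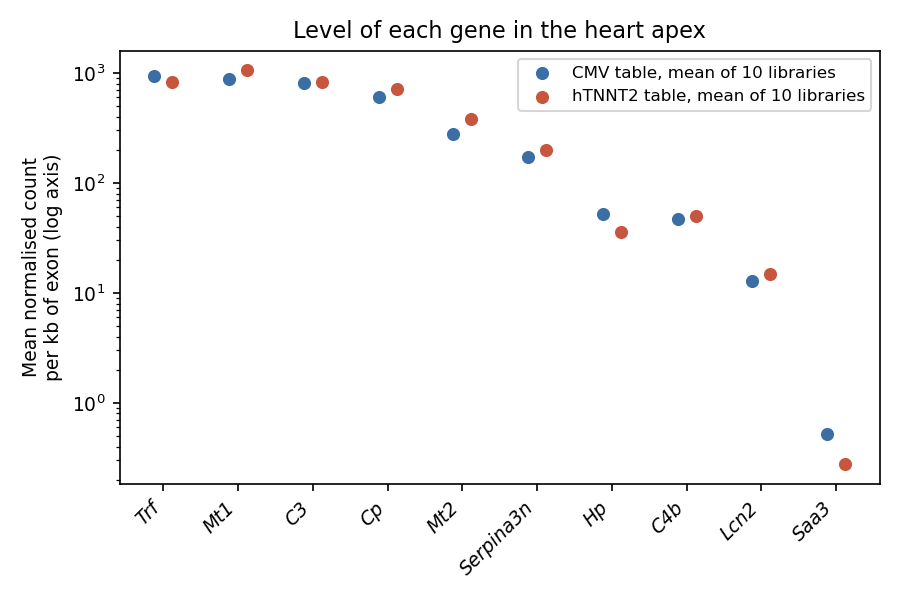
Mean normalised count per kb of annotated exon (log axis) for each of the 10 genes, as 1 point per deposited table, each the authors' mean over the 10 libraries of a comparison. Trf, Mt1, C3 and Cp lie between 608 and 1055 in both tables, and Saa3 lies under 1.

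Serpina3n and Cp stood out with the hTNNT2 promoter. Serpina3n, a secreted inhibitor of serine proteases and the mouse counterpart of human alpha-1-antichymotrypsin, lies on the plus strand of chromosome 12 (104406729 to 104414329, GRCm38). Its log2 fold change in the authors' deposited table was 0.28 (SE 0.075) with hTNNT2, at a mean count of 409. With CMV it lay on the other side, at -0.10 (SE 0.055) and a mean count of 358 in the authors' deposited table. Cp, ceruloplasmin, lies on the plus strand of chromosome 3 (19957054 to 20009145). It was at 0.25 (SE 0.064) with hTNNT2, at a mean count of 6808, in the authors' deposited table. With CMV it was at -0.038 (SE 0.063), at a mean count of 5812, in the authors' deposited table. The unadjusted p with hTNNT2 was 0.000181 for Serpina3n and 8.88e-05 for Cp in the authors' deposited table, which placed their statistics 14th and 12th from the highest among 21461 genes. Neither passed over all genes, with an adjusted p from DESeq2 of 0.159 for Serpina3n and 0.0995 for Cp in the authors' deposited table. Both genes were put at the centre of the list with these values known, so the values describe the choice and test nothing.

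The regions upstream of Serpina3n and Cp are shown because these genes had the highest values of the list with hTNNT2. The sequences are those of RefSeq on GRCm38.p6, from 250 bases before to 50 after the annotated start, written 5' to 3' on the gene's strand. For Cp, which has 2 annotated starts, the window of the downstream start is given. Capitals mark matches to binding motifs of inflammatory transcription factors, searched on both strands: TTCNNNGAA for STAT factors, TTGCNNAA for C/EBP factors and GGGNNNTTCC for NF-kB.
Serpina3n, chr12:104406458-104406757, plus strand: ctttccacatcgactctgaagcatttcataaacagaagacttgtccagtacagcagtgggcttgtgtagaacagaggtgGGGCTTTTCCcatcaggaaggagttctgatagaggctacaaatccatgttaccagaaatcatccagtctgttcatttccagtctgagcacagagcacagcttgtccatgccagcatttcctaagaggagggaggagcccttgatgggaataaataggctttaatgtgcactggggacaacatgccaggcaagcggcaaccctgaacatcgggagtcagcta
Cp, chr3:19956999-19957298, plus strand: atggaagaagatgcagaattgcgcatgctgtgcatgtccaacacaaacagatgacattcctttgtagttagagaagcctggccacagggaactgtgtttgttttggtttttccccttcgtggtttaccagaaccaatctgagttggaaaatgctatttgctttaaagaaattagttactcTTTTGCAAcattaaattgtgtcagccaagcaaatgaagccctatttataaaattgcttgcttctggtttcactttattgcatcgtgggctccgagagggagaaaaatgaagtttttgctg
The Serpina3n window held 1 NF-kB match, GGGCTTTTCC, at positions -171 to -162 from the start. A match to this motif was found in 5.56% of the 32851 mouse promoter windows of the same length. The Cp window held 1 C/EBP match on the minus strand, at positions -70 to -63, and 10.8% of all windows held that motif. The other Cp window had none of these letters. STAT letters, present in 8.30% of all windows, occurred in 0 of the 8 windows available for 7 of the 10 genes. A C/EBP match also stood in the windows of C3, Lcn2, Saa3 and Mt2. These are letter matches in a short window and not shown to be sites.

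Serpina3n belongs to a cluster of closely related genes on chromosome 12, among which reads can be shared. Of the 10 other Serpina3 genes in the tables, 5 were higher and 5 lower with hTNNT2 Zeb2os in the authors' deposited table. Serpina3a, Serpina3b and Serpina3j had mean counts of 1.38, 0.715 and 1.09 there and no adjusted p, so their signs carry little. By DESeq2's adjusted p 0 of the others passed, where 0.0385% of all genes did, in the authors' deposited table. There 1 gene had a raw p below 0.05, where 3.92% of all genes had one in either direction. That gene, Serpina3i, had a mean count of 20.9 and was at 0.16 (SE 0.058, p = 0.00622, adjusted p = 0.689 from DESeq2) in the authors' deposited table. Serpina3h, at a mean count of 91.1, was at 0.15 (SE 0.081) under hTNNT2 in the authors' deposited table. With CMV both lay below 0, Serpina3i at -0.080 (SE 0.042) and Serpina3h at -0.10 (SE 0.062), in the authors' deposited table. Their pattern over the 2 promoters had the same signs as that of Serpina3n. The sources used here do not say how reads common to these copies were counted. Serpina3k, at a mean count of 479, was at -0.0068 (SE 0.015) under hTNNT2 in the authors' deposited table. With CMV it had a mean count of 653 and an SE of 0.011 in the authors' deposited table. Both SE lay in the range of 12 hepatocyte markers described at the end, 0.0098 to 0.023. The value of Serpina3k near 0 is therefore not set against that of Serpina3n. For Cp, 108 of 9566 exon bases (1.13%) overlap exons of Hps3 on the opposite strand. Hps3, a subunit of a complex for lysosome-related organelles, was at 0.028 (SE 0.081) with hTNNT2 and 0.052 (SE 0.067) under CMV in the authors' deposited tables.

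The other secreted acute-phase genes had lower deposited values with hTNNT2 than Serpina3n and Cp. Hp, haptoglobin, on chromosome 8 (109575128 to 109579172), was at -0.022 (SE 0.029) with hTNNT2 and at -0.022 (SE 0.017) under CMV in the authors' deposited tables. Its mean count was 57.1 and 83.7 in turn. The SE of Hp was near those of the hepatocyte markers described at the end. Like that of Serpina3k, its value near 0 is therefore not set against that of Serpina3n. Lcn2, lipocalin 2, on chromosome 2 (32384633 to 32388252), is a product of neutrophils and of stressed heart muscle. It was at -0.017 (SE 0.061) with hTNNT2 and -0.029 (SE 0.040) under CMV in the authors' deposited tables, at mean counts of 39.3 and 33.5. Saa3, a serum amyloid A made outside the liver in mice, on chromosome 7 (46711998 to 46715700), had mean counts of 0.719 and 1.35. At that depth a difference was not detectable: its log2 fold change was 0.0083 (SE 0.0086) under hTNNT2 and -0.0033 (SE 0.011) under CMV in the authors' deposited tables, and Saa3 had no adjusted p with hTNNT2. Trf, transferrin, the iron carrier of plasma, on chromosome 9 (103204001 to 103230444), was at -0.027 (SE 0.051) with hTNNT2 and -0.041 (SE 0.032) under CMV in the authors' deposited tables. Its mean counts were 2765 and 3089. Thus Hp, Lcn2 and Trf were below 0 under both promoters, each by less than 2 SE.

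The complement genes lay between these patterns. C3, the protein on which the complement pathways converge, lies on chromosome 17 (57203970 to 57228136). It was at 0.028 (SE 0.072) with hTNNT2 and -0.072 (SE 0.053) under CMV in the authors' deposited tables, at mean counts of 4253 and 4177. C4b, of the classical and lectin pathways, also on chromosome 17 (34728380 to 34743882), was at 0.088 (SE 0.059) under hTNNT2 in the authors' deposited table. With CMV it was at -0.056 (SE 0.043) in the authors' deposited table, and the mean counts were 284 and 266. C4b has a near-identical neighbour, C4a, with mean counts of 16.7 and 16.1, so reads can be split between them. C4a was at -0.010 (SE 0.046) with hTNNT2 and 0.023 (SE 0.044) under CMV in the authors' deposited tables, the opposite signs to C4b.

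Mt1 and Mt2, the metallothioneins of most tissues, lie 5513 bases apart on the plus strand of chromosome 8. Their transcription is known to answer to metals through the zinc-sensing factor MTF1, which binds metal response elements, and to glucocorticoids. Mt1 (94179082 to 94180327) was at 0.013 (SE 0.073) with hTNNT2 and -0.047 (SE 0.071) under CMV in the authors' deposited tables, at mean counts of 1315 and 1104. Mt2 (94172664 to 94173568) was at 0.089 (SE 0.050) with hTNNT2 and -0.031 (SE 0.040) under CMV in the authors' deposited tables, at mean counts of 223 and 162. Neither passed, although the unadjusted p of Mt2 with hTNNT2 was 0.0762 (adjusted p from DESeq2 of 1.00) in the authors' deposited table. An antisense gene, Gm45774, overlaps 73.5% of the exon bases of Mt2, and Gm20425, on the same strand as Trf, overlaps 63.5% of those of Trf. Both were without a row in the tables, so reads from these overlaps cannot be assigned here.

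The windows upstream of the metallothionein genes are printed because both carry several metal response elements, the feature that ties the pair to metals. Capitals mark the core letters TGCACNC and TGCGCNC on either strand, with the C/EBP motif TTGCNNAA also marked in Mt2.
Mt2, chr8:94172368-94172667, plus strand: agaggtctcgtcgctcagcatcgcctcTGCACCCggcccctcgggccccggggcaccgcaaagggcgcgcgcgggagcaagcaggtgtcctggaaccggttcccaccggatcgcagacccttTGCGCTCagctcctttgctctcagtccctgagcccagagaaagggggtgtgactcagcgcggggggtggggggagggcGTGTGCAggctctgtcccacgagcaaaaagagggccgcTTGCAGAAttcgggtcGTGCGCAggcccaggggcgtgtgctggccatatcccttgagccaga
Mt1, chr8:94178839-94179138, plus strand: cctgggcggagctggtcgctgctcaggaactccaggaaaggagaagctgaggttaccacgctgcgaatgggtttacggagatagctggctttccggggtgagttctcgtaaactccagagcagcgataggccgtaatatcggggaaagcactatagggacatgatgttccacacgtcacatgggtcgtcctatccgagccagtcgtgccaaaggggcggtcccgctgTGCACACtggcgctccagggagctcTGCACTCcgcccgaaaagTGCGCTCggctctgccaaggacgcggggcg
Mt2 held 4 core matches and Mt1 held 3, the latter between positions -23 and 27 from the RefSeq start. At least 1 such match was present in 25.7% of all 32851 windows, at least 3 in 1.97% and at least 4 in 0.517%. The other genes with a window had 0. No matches of different motifs overlapped in the windows of the list. Elements outside these windows were not searched.

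**Figure D2:**
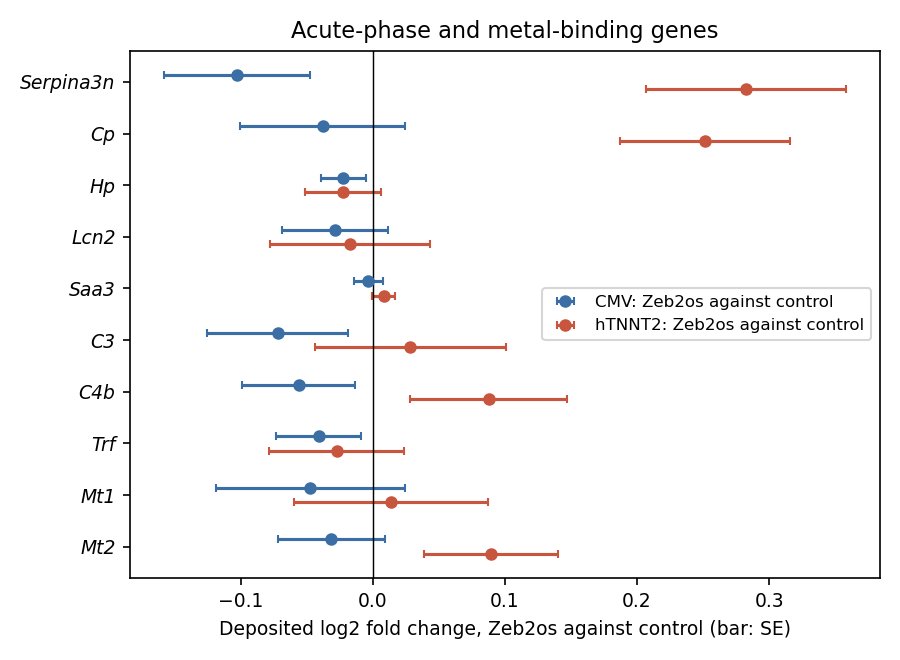
Deposited log2 fold change of Zeb2os against control for the 10 genes with CMV (blue) and hTNNT2 (red), 5 against 5 mice each, with bars of 1 SE as deposited. Serpina3n and Cp lie at 0.28 and 0.25 with hTNNT2 and below 0 with CMV, and the other genes lie between -0.072 and 0.089.

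With CMV, 0 of the 10 genes passed an adjusted p of 0.05 from DESeq2, where 0.00469% of all genes did, and 0 had a raw p below 0.05, where 1.67% of all genes did, in the authors' deposited table. All 10 were below 0, with a median of -0.039, whereas 48.3% of all genes tested were above 0 and their median was -0.00016 in the authors' deposited table. Each lay within 2 SE of 0. With hTNNT2, 0 of the 9 genes with an adjusted p passed, where 0.0385% of all genes did, in the authors' deposited table. At a raw p below 0.05, 2 of 10 were higher, Serpina3n and Cp, where 2.27% of all genes were higher, in the authors' deposited table. In all 7 genes were above 0 and 3 below, with a median of 0.021, beside 47.0% above 0 and a median of -0.00080 over all genes tested in the authors' deposited table. Because the genes were chosen with these comparisons known, nothing is read from the shares.

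To compare the promoters, the CMV log2 fold change was taken from the hTNNT2 one. Its SE was the root of the summed squared deposited SE, and a normal p was adjusted over the 20754 genes tested in both tables. Because the deposited log2 fold changes are not ratios of group means, their difference is not one either. Whether both tables share the same scale was not tested, so the normal p is approximate. The 2 comparisons share no mice. They differ in the level of Zeb2os as well as in the promoter, with mean counts of 4138 (CMV) and 43281 (hTNNT2) in the authors' deposited tables. Sex differs too: males were 2 control and 1 Zeb2os mice with CMV, and 0 and 3 in turn with hTNNT2. The parts of promoter, Zeb2os level and sex in a difference cannot be told apart. The difference is built from the same values with which Serpina3n and Cp were chosen, so for them its rank and p, also under other settings, restate the choice and test nothing. For Serpina3n the difference was 0.39 (SE 0.094), the 4th highest of all genes by its ratio to the SE, with an unadjusted normal p of 3.84e-05 and an adjusted p of 0.199. For Cp it was 0.29 (SE 0.090), the 18th highest, with an adjusted p of 1.00 and a range from 0.115 to 1.00 over the alternatives. C4b at 0.14 (SE 0.073) and Mt2 at 0.12 (SE 0.065) followed, then C3 at 0.10 (SE 0.090) and Mt1 at 0.061 (SE 0.10). Trf at 0.013, Saa3 at 0.012 and Lcn2 at 0.011 stayed within 1 SE of 0. Hp was at -0.000069 (SE 0.034), a sign that turned to 0.0049 when fold changes were centred on the median gene. Of the 10 genes 0 passed, where 0.00482% of all genes did, and 3 had a raw p below 0.05, where 2.65% of all genes did. Rescaling the statistics to their own spread, a setting added after the data were seen, carried Serpina3n under the threshold in this difference, at an adjusted p of 0.00629. With hTNNT2 alone it did so for Serpina3n (adjusted p = 0.0448) and Cp (adjusted p = 0.0256). Over all alternatives the adjusted p with hTNNT2 ran from 0.0448 to 0.194 for Serpina3n and from 0.0256 to 0.0995 for Cp. For the difference it ran from 0.00629 to 0.335 for Serpina3n.

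**Figure D3:**
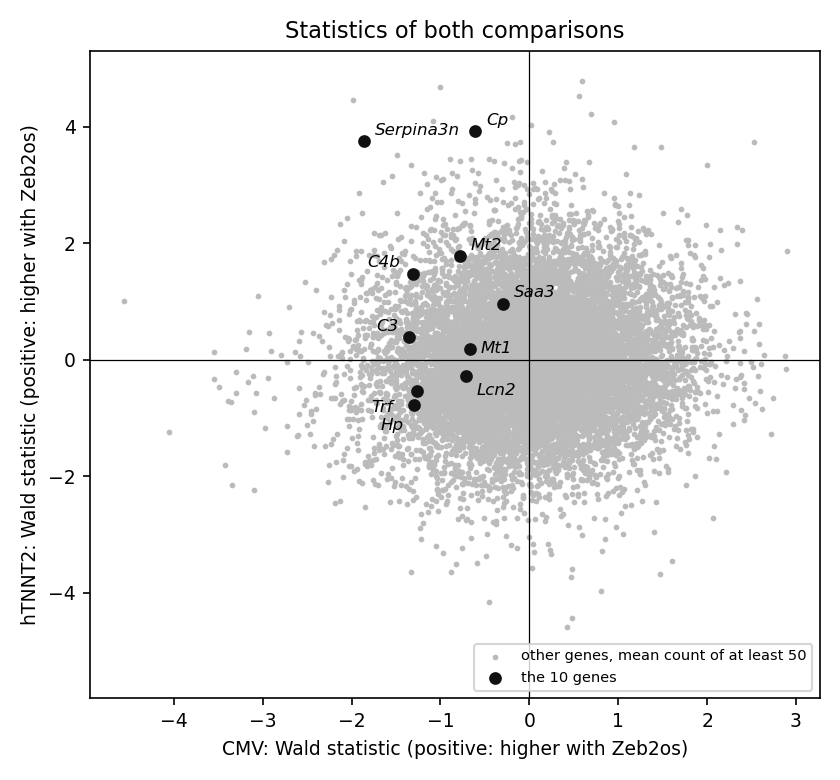
Wald statistic with CMV (horizontal) against hTNNT2 (vertical), positive for genes higher with Zeb2os, for the 10 genes (black) and other genes with a mean count of 50 or more in both tables (grey, Zeb2os left out). Serpina3n lies at -1.86 and 3.74 and Cp at -0.61 and 3.92, at the upper left of the cloud, and the other 8 lie inside it.

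The genes nearest to Serpina3n in these 2 statistics were Sfrp1, Osr1 and Bmper, among 12545 named genes with a mean count of 50 or more in both tables. Sfrp1, a secreted Wnt antagonist, was at a distance of 0.431 and was at 0.27 (SE 0.078) with hTNNT2 and -0.10 (SE 0.070) under CMV in the authors' deposited tables. Osr1, a transcription factor of mesenchyme, followed at 0.663, and Bmper, a secreted regulator of BMP signalling, at 0.666. With only 2 values per gene, this likeness is a description of position in the plot.

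Genes that work beside the 10 were read from lists written down with earlier results known. Of 33 other acute-phase genes, 32 had a p-value. By DESeq2's adjusted p, 0 rose and 0 fell under either promoter in the authors' deposited tables. At a raw p below 0.05, 3 were higher and 1 lower with hTNNT2, where 3.92% of all genes had such a p in either direction, and 0 with CMV, where 1.67% did, in the authors' deposited tables. With hTNNT2, 11 were above 0 and 21 below, and with CMV 4 were above and 28 below, in the authors' deposited tables. Their medians were -0.0051 with hTNNT2 and -0.0092 with CMV. The list includes Alb, a hepatocyte marker, at -0.013 (SE 0.016) with hTNNT2 and -0.0089 (SE 0.012) under CMV in the authors' deposited tables. Because a small SE is no sign of precision, nothing about heart cells is read from these signs and medians. Beside Serpina3i, the lipopolysaccharide co-receptor Cd14 was at 0.19 (SE 0.082) and Hamp2, a mouse copy of the iron hormone hepcidin, at -0.047 (SE 0.021) under hTNNT2 in the authors' deposited table.

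Among 28 other complement genes, 22 were above 0 and 6 below with hTNNT2, with a median of 0.071, in the authors' deposited table. Of these 0 passed the adjusted p of DESeq2, and 7 were higher and 0 lower at a raw p below 0.05, where 2.27% of all genes were higher, in the authors' deposited table. Serping1, the C1 inhibitor and like Serpina3n a serine protease inhibitor, was at 0.24 (SE 0.069, adjusted p = 0.282 from DESeq2) under hTNNT2 in the authors' deposited table. C7, a part of the membrane attack complex, was at 0.11 (SE 0.042) in the authors' deposited hTNNT2 table. With CMV, 9 complement genes were above 0 and 19 below, with a median of -0.021, and 0 had a raw p below 0.05 in the authors' deposited table.

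Of 27 iron handling genes 16 were above 0 with hTNNT2 and 12 with CMV, and 0 passed DESeq2's adjusted p in either of the authors' deposited tables. Under hTNNT2, 3 were higher and 2 lower at a raw p below 0.05, beside 3.92% of all genes in either direction, and with CMV 0, beside 1.67%, in the authors' deposited tables. Scara5, a ferritin receptor, was at 0.17 (SE 0.074) under hTNNT2 in the authors' deposited table. Lrp1, a receptor that takes up haemopexin with haem, was at 0.15 (SE 0.066) and Slc11a2, an iron importer, at -0.13 (SE 0.060) in the authors' deposited hTNNT2 table. Of the zinc and copper handling genes, 24 had a p-value with hTNNT2 and 25 with CMV. By DESeq2 0 of them passed, and 0 had a raw p below 0.05, in either of the authors' deposited tables. Mtf1, the metal sensor that drives the metallothioneins, was at -0.068 (SE 0.063) with hTNNT2 and -0.053 (SE 0.055) under CMV in the authors' deposited tables.

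Signalling genes upstream of the acute phase also had 0 passes by DESeq2 in both of the authors' deposited tables. Of 26 cytokine and STAT3 signalling genes, 21 were above 0 with hTNNT2 and 7 under CMV in the authors' deposited tables. At a raw p below 0.05, 1 was lower with hTNNT2, beside 3.92% of all genes in either direction, and 3 were lower with CMV, beside 1.67%, in the authors' deposited tables. The gene lower with hTNNT2 was interleukin 1 alpha (Il1a), at -0.091 (SE 0.034) and a mean count of 5.58 in the authors' deposited table. Interleukin 1 beta (Il1b) was at -0.15 (SE 0.045), the cytokine Lif at -0.096 (SE 0.043) and the NF-kB cofactor Bcl3 at -0.14 (SE 0.067) under CMV in the authors' deposited table. Under hTNNT2 these 3 were at 0.0014, 0.030 and 0.0098 in turn in the authors' deposited table. Of 14 glucocorticoid response genes, 9 were above 0 with hTNNT2 and 8 with CMV, in the authors' deposited tables. At a raw p below 0.05, 1 was higher and 1 lower with hTNNT2, and 0 were higher and 2 lower with CMV, beside the same shares of all genes, in the authors' deposited tables. Errfi1, a feedback inhibitor of EGF receptor signalling, was at -0.25 (SE 0.071) and the kinase Sgk1 at -0.21 (SE 0.063) under CMV in the authors' deposited table. Under hTNNT2 they were at -0.027 (SE 0.082) and -0.046 (SE 0.081) in turn in the authors' deposited table.

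Cell type markers moved with some of these values. In bulk tissue, fewer cells of a type and less RNA per cell cannot be told apart. With hTNNT2, 11 of 12 macrophage and monocyte markers were above 0, with a median of 0.18, and 1, Lyz2, rose by 0.34 (SE 0.071, adjusted p = 0.0154 from DESeq2) in the authors' deposited table. At a raw p below 0.05, 7 of the 12 were higher and 0 lower there, beside the 2.27% of all genes that were higher, in the authors' deposited table. C1qa and Cd14 stand in this list and also in the complement and acute-phase lists. Of 10 cardiac fibroblast markers, 8 were above 0, with a median of 0.096, in the authors' deposited hTNNT2 table. At a raw p below 0.05, 4 of these 10 were higher and 0 lower, beside the same 2.27% of all genes, in that deposited table of the authors. Dcn was at 0.25 (SE 0.063, adjusted p = 0.0995 from DESeq2) there, close to the values of Cp in the same deposited table of the authors. Cardiomyocyte markers were below 0 in 9 of 9, with a median of -0.052, in the authors' deposited hTNNT2 table. With CMV the medians were -0.0027, 0.011 and 0.039 in turn in the authors' deposited table. Neutrophil markers, of which Lcn2 is a known companion, had mean counts of at most 67.2, with medians of 4.70 (hTNNT2) and 3.04 (CMV). Their median log2 fold change was -0.0090 with hTNNT2 and 0.00032 under CMV in the authors' deposited tables. At such low counts these medians do not show whether the markers differed. Epicardial and mesothelial markers, in cells known to make Saa3 and C3, were below 0 in 7 of 9 with hTNNT2 and 9 of 9 under CMV in the authors' deposited tables. The medians of these markers were near 0, at -0.0050 and -0.016 in turn, in the authors' deposited tables. Smooth muscle and pericyte markers had a median of 0.10 with hTNNT2 and -0.056 with CMV, and endothelial markers of -0.0051 and -0.042, in the authors' deposited tables. No marker of these 7 lists had a mean count of 0. The part of these cells in the values of Serpina3n, Cp and the complement genes was not tested.

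Sex moved with the groups too. With hTNNT2 the X-linked genes Eif2s3x, Kdm5c, Ddx3x and Kdm6a, active on both X chromosomes of females, were below 0 in 4 of 4, from -0.23 to -0.092, in the authors' deposited table. With CMV they were above 0 in 4 of 4, from 0.024 to 0.080, in the authors' deposited table. The part of sex in the values of the 10 genes cannot be told apart from that of the vector with hTNNT2, where the control group had 0 males and no values per mouse are used. Nor can the part of sex be told apart in the difference between the promoters.

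**Figure D4:**
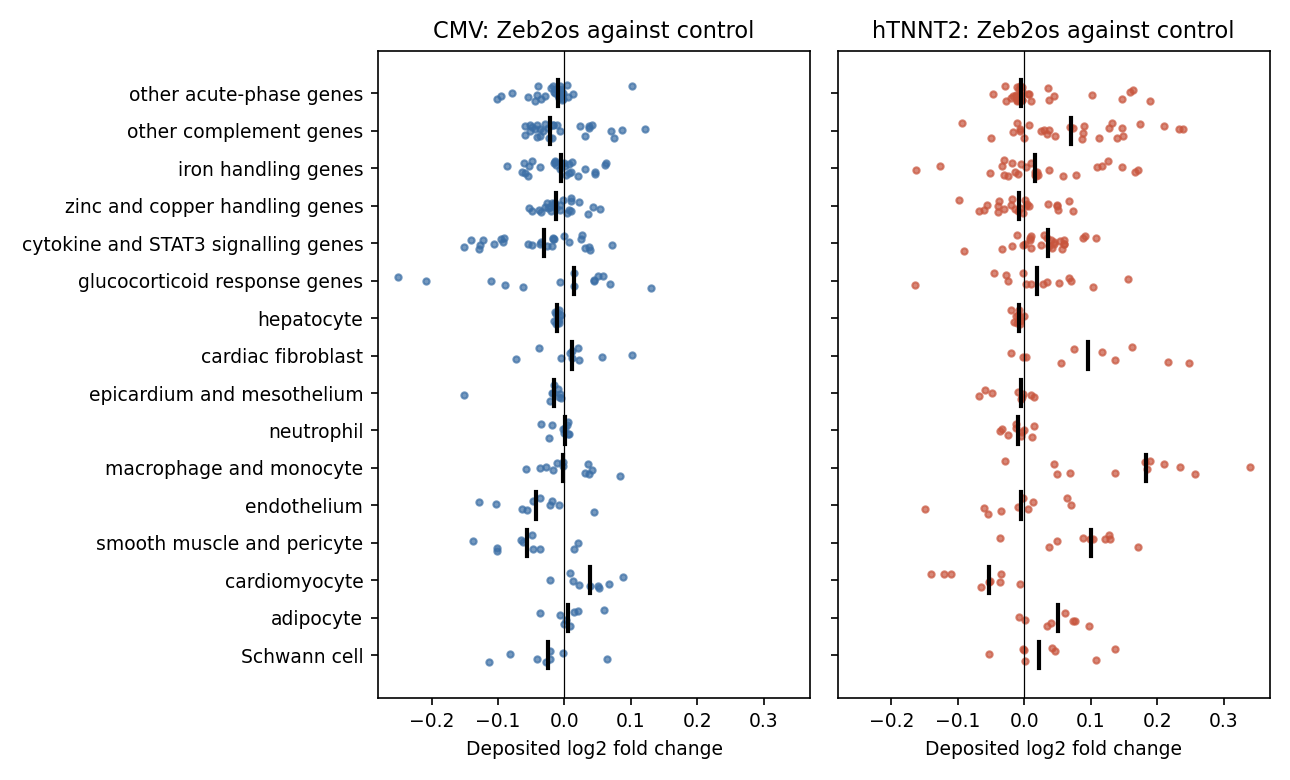
Deposited log2 fold change of each measured gene (points) of the wider lists and the cell type markers, with the median of a list as a black bar, for CMV (left) and hTNNT2 (right). Other complement genes have a median of 0.071 and macrophage markers of 0.18 with hTNNT2, against -0.021 and -0.0027 with CMV.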

How the data were processed

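RNA of the heart apex was depleted of ribosomal RNA and sequenced, per the labels' protocols. Per the submitters' processing notes, the authors used Trim Galore, DESeq2 and the builds GRCm38 and mm10. The sources used here do not name the aligner, the counter, its strand setting or the depth per library. The authors deposited mean normalised counts as a non-negative signal, and fold changes and SE as log2 values. The deposited Wald statistic is a score equal to minus the log2 fold change over its SE, and was turned in sign. The p-value and adjusted p-value were deposited by the authors. A gene passed at an adjusted p under 0.05.

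The genes, lists and tests were chosen with earlier results of these data known. Named genes were the 10 genes, Zeb2os, sex-linked genes, up to 3 members per list with the smallest p, members that passed, and the 3 genes nearest to Serpina3n. Not all are reported here. Serpina3 relatives, C4a and Hps3 were added after values were seen. Locations and exon lengths came from GENCODE M21 (GRCm38), promoters from RefSeq (GRCm38.p6, 7 of 10 genes matched). Python 3.11.15, pandas 2.3.3, scipy 1.17.1, statsmodels 0.14.6 and matplotlib 3.10.9 were used. The difference test was run on simulated data with normal noise drawn at the deposited SE. That checked the calculation, and could not show whether the deposited SE hold for these data. Alternatives were an adjusted p threshold of 0.01, a mean count of at least 50, centring on the median gene, removing a lowess trend across mean count (span 0.3) and rescaled statistics. Labels name mice, and p-values rest on the deposited SE of comparisons between these mice. Since a small SE is no sign of precision here, the p-values are not a plain measure of the spread between mice.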

Additional observations from a re-analysis of the deposited data

How the results depend on the processing

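Each of the 10 genes kept its direction and its side of the threshold wherever a setting gave it a value, with these exceptions. They were the sign of the Hp difference given with the results and 3 values under rescaled statistics. Only centring and trend removal could change a direction, because the other settings left the fold changes as they were. The threshold of 0.01 could not let in a gene that had failed the main one, so it tested nothing for the 10 genes. Rescaling, added after seeing the data, put the hTNNT2 values of Serpina3n (0.28) and Cp (0.25) and the promoter difference of Serpina3n (0.39) past the threshold. Lcn2 and Saa3 have no value at a mean count of at least 50. Over all genes, the count that passed with CMV was 1 and became 2 at a mean count of at least 50, 2 after centring and 13 after rescaling. With hTNNT2 it was 7 and became 1 at a threshold of 0.01, 12 at a mean count of at least 50 and 23 after rescaling. For the promoter difference it was 1 and became 12 after rescaling. The deposited statistics had a robust spread of 0.81 (CMV) and 0.93 (hTNNT2), which is the reason the rescaled settings pass more genes. Centring and trend removal moved the median gene by at most 0.0026 on the log2 scale. Leaving out each mouse was not run, since the tables hold no value per mouse. No paired analysis was possible because the groups share no replicate numbers and the tables hold only the authors' comparisons. Depth per library is unknown here, and Saa3 and Lcn2 are limited by their low counts.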

Other observations

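Markers of hepatocytes were present in the heart apex libraries, and Hp and Trf are made mainly by the liver. All 12 hepatocyte markers had a lower mean count in the hTNNT2 table than in the CMV table, with a ratio from 0.669 to 0.893 and a median of 0.741. The median ratio of all genes with a mean of at least 50 was 1.16, in tables normalised separately. Hp had a ratio of 0.682 and Trf of 0.895, whereas Cp had 1.17, Serpina3n 1.14 and C3 1.02. Albumin, the main product of hepatocytes, had a mean count of 6516 in the authors' deposited CMV table and 4400 in the authors' deposited hTNNT2 table. The deposited SE of the 12 markers lay between 0.0098 and 0.023 over both of the authors' deposited tables, against a median of 0.063 (CMV) and 0.074 (hTNNT2) for genes with a mean of at least 50. Hp, at 0.017 and 0.029, was near the markers in this respect. The origin of these transcripts was not tested.

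Among red blood cell genes, the globin genes Hba-a1, Hba-a2, Hbb-bs and Hbb-bt were listed at a mean count of 0 in both tables, while Alas2, the haem-making enzyme of red cells, had 2940 and 3556 in the authors' deposited tables.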
